A study of Mus musculus with 9 samples.

Results

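The genes described are 10 amino acid transporter genes, Slc7a1, Slc7a3, Slc7a5, Slc7a11, Slc3a2, Slc1a4, Slc1a5, Slc6a9, Slc38a1 and Slc38a2, taken by name from a deposited table of 21959 genes. They were measured by RNA sequencing in bone marrow mesenchymal stromal cells of the mouse, a cell line that the labels mark SV40, in medium with 10% serum. For 24 h the cells had peritoneal fluid (PF) from 1 of 2 sources or, in its place, phosphate-buffered saline (PBS). The fluid came from control animals (control PF) or from animals that had TNBS treatment over 3 days (TNBS PF). This hapten is widely used to cause colitis in mice. Each of the 3 groups had 3 libraries. The sources used here do not give mouse strain, age or the number of fluid donors, and do not say that libraries of a group were separate cultures. The p-values therefore measure only the spread between these libraries, which may be technical.

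Cells import most amino acids through membrane carriers of the solute carrier (SLC) families, which differ in substrate and in what drives transport. The SLC7 light chains Slc7a5 and Slc7a11 work as a pair with the glycoprotein heavy chain encoded by Slc3a2 and exchange one amino acid for another. The SLC1, SLC6 and SLC38 carriers named here depend on sodium to carry neutral amino acids. Several of these genes are known targets of the transcription factor ATF4, whose translation rises when amino acids are short or when other stresses block translation initiation. Stromal cells use the imported amino acids for protein and matrix synthesis, for glutathione and for one-carbon metabolism.

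Where a sequence of the region before the start site was held by RefSeq (GRCm38.p6), it was searched on both strands for the amino acid response element TGATGNAA, bound by ATF4 with C/EBP partners, the antioxidant response element core TGACNNNGC, bound by NRF2, and the E-box CACGTG, bound by MYC. The window was the 250 bases before the start site. Of the 10 genes 6 matched by symbol, with 9 windows; Slc7a3, Slc7a5, Slc1a5 and Slc38a1 did not. The 4 below are shown because they include the heavy and light chain of the cystine exchanger, a cationic carrier that rose and the most abundant carrier, which did not pass the test. Capitals mark matches to a motif.
Slc7a11 (chr3:50443614-50443863, minus strand): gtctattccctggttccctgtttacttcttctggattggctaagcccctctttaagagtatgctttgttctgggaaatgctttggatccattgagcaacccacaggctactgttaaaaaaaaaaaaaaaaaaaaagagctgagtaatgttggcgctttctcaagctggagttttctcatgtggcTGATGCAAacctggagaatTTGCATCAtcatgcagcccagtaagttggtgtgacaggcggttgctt
Slc3a2 (chr19:8713898-8714147, minus strand): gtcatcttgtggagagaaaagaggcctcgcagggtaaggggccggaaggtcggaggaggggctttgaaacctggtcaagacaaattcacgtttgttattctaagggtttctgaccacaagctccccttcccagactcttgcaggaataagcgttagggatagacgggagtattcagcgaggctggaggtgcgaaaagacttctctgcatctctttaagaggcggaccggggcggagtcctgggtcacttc
Slc7a1 (chr5:148399905-148400154, minus strand): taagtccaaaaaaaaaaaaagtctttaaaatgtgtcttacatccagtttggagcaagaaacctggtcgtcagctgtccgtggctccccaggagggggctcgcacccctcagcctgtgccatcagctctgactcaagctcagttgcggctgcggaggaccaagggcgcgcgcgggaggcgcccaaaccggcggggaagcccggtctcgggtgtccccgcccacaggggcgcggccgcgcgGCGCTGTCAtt
Slc38a2 (chr15:96699729-96699978, minus strand): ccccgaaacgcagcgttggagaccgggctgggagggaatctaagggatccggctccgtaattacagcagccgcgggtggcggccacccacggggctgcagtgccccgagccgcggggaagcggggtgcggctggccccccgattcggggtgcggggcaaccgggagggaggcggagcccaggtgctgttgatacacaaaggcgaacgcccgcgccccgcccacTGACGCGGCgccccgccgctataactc

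Slc7a11 held the amino acid response element at 2 places. TGATGCAA stood on the strand of the gene at bases -66 to -59, counted with -1 as the last base before the start site. TTGCATCA, the same element read on the opposite strand, stood at bases -47 to -40, with no overlap between the matches. This motif was in 1 of the 9 windows, against 3.45% of 32851 windows of all genes. The antioxidant core was in 4 of the 9 windows, of Slc38a2 (TGACGCGGC, -27 to -19), Slc7a1 (GCGCTGTCA on the opposite strand, -11 to -3, in 1 of its 2 starts) and 2 of the 3 starts of Slc6a9, against 10.2% of all windows. The E-box was in 0 of the 9, against 6.02%. A match is a run of letters, not a shown binding site. The window of Slc3a2, with no match, lies inside the gene as annotated in GENCODE M21 (chr19:8706882-8723369, minus strand). The bases before the outer end of that gene were not searched.

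In TNBS PF Slc7a11 stood at 1.58-fold and Slc7a5 at 1.48-fold the control PF level in FPKM (fragments divided by gene length and by library depth, n = 3 each). These were the largest ratios of the 10 in that comparison. The heavy chain gene Slc3a2, the cationic carriers Slc7a1 and Slc7a3, the glutamine carrier Slc1a5 and the glycine carrier Slc6a9 rose by 1.27-fold to 1.45-fold. Against PBS Slc7a11 stood at 1.77-fold, Slc7a3 at 1.64-fold and Slc7a5 at 1.44-fold. Differences in rise between the transporters were not tested. The system A carriers Slc38a1 and Slc38a2 and the small neutral carrier Slc1a4 did not pass the test. Between control PF and PBS 0 of the 10 passed the limma test, against 2.15% of all tested genes. An unadjusted p under 0.05 was found for 0 of the 10, against 1643 of 10537 genes. By limma voom 0 of the 10 were called, against 374 of 10525 genes. For only 10 genes, counts of 0 lie near those shares.

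Differences were tested with limma on log2(FPKM + 1) across all 10537 genes with at least 1 FPKM in at least 3 libraries, with Benjamini-Hochberg adjustment over those genes. All 10 transporters passed that filter. In TNBS PF against control PF 7 of the 10 rose and 0 fell at an adjusted p under 0.05. Among all tested genes 10.6% were called, 5.15% higher and 5.45% lower. The 10 genes and the lists below were chosen with earlier results of these data known. Their counts beside the shares of all genes are therefore a description and not a test. The median difference of the 10 was 0.33 on the log2 scale, against -0.01 for all tested genes. In 9 of the 10 the 3 TNBS PF values lay above all 3 control PF values, as in 13.6% of all tested genes, and in 0 of the 10 below them, as in 18.2% (31.8% in either direction). In TNBS PF against PBS 7 of 10 rose and 0 fell, where 16.7% of all genes were called with 7.8% higher and 8.88% lower. Of those calls 46.8% were higher, and with TPM scaling 35.1%. There the median was 0.30, and 8 of 10 had TNBS PF above PBS without overlap, against 15.5% of all genes (19.7% for TNBS PF below PBS and 35.3% for either direction). Both comparisons use the same TNBS PF libraries. In control PF against PBS the 10 had a median of -0.03, with 0 of 10 called against 2.15% of all genes (1.02% higher and 1.14% lower).

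**Figure D1:**
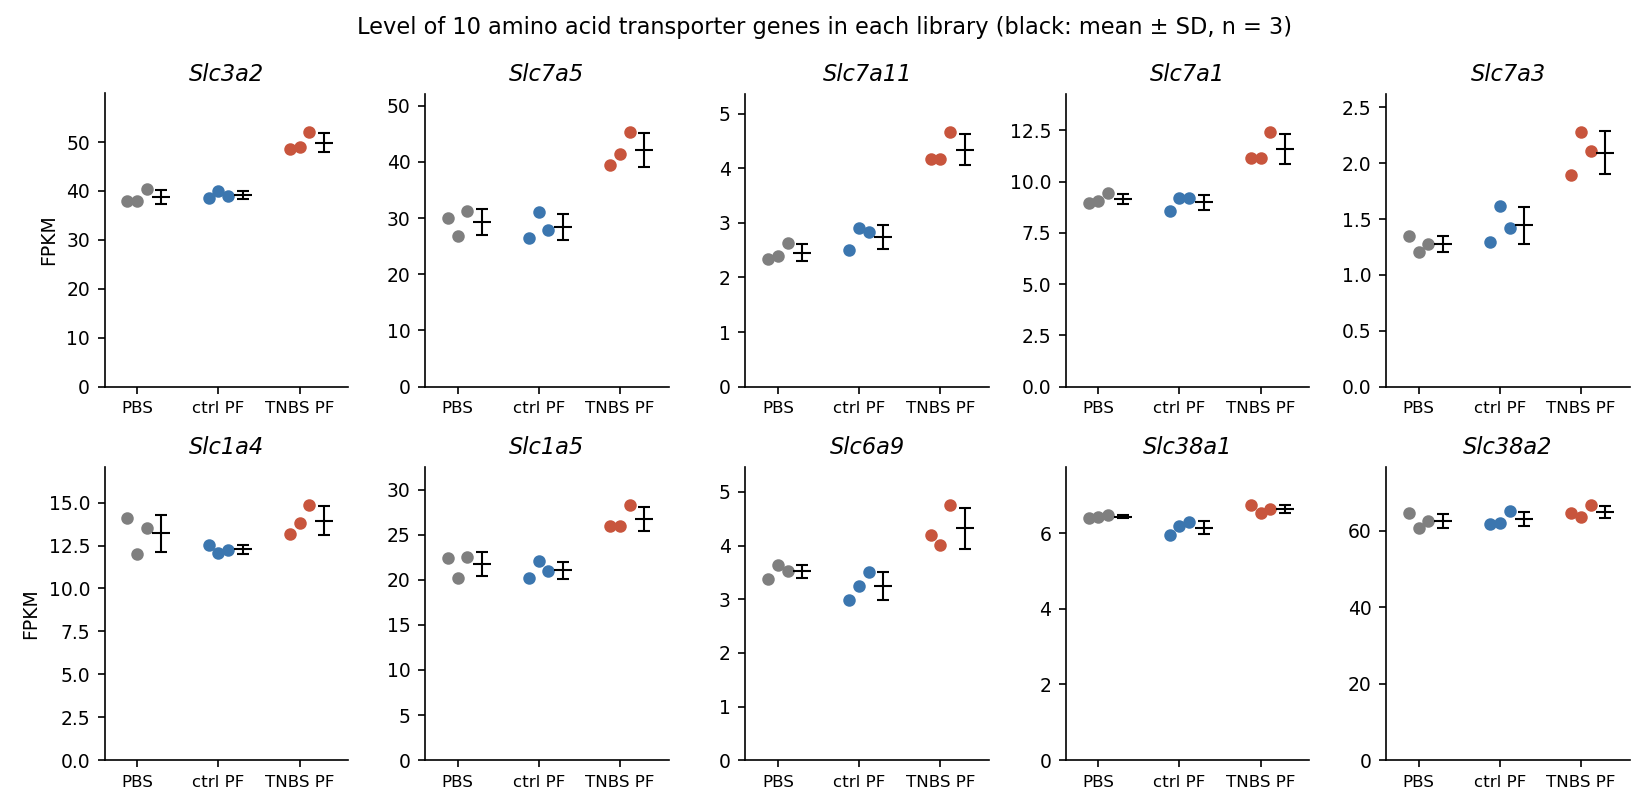
FPKM of the 10 transporter genes on a linear axis from 0, with 1 point per library (grey PBS, blue control PF, red TNBS PF) and mean ± SD in black. The TNBS PF points stand above the others for 8 genes, whereas those of Slc38a2 and Slc1a4 overlap with PBS. The share of all tested genes with TNBS PF above both groups was not computed. It was 13.6% above control PF and 15.5% above PBS, each taken alone.

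In GENCODE M21 (mm10) Slc3a2 lies at chr19:8706882-8723369, Slc7a5 at chr8:121881150-121907694 and Slc7a11 at chr3:49892526-50443614, all on the minus strand. Slc3a2 encodes the heavy chain (4F2hc, CD98) that carries the light chains to the cell surface. Its level was 48.5, 48.9 and 52.1 FPKM under TNBS PF, 38.6, 40.1 and 38.9 under control PF and 38.0, 37.9 and 40.4 under PBS. All 3 TNBS PF libraries stood above the other 6, which overlapped with each other. Slc3a2 rose by 0.34 against control PF (SE 0.037, limma adjusted p = 0.000124) and by 0.35 against PBS (adjusted p = 4.81e-05).

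Slc7a5 encodes LAT1, the exchanger that brings in leucine and other large neutral amino acids. It was measured at 39.5, 41.4 and 45.4 FPKM under TNBS PF, 26.5, 31.1 and 27.8 under control PF and 29.9, 26.7 and 31.3 under PBS. The lowest TNBS PF library was above the highest of the other 6. The rise was 0.55 against control PF (SE 0.0664, limma adjusted p = 0.000236), which ranked Slc7a5 11 among the 10537 tested genes by size of rise. Against PBS it was 0.51 (adjusted p = 0.00027).

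Slc7a11 encodes xCT, which exports glutamate in exchange for cystine, the source of cysteine for glutathione. TNBS PF libraries had 4.18, 4.17 and 4.67 FPKM, control PF 2.50, 2.91 and 2.83, and PBS 2.34, 2.39 and 2.63. The control PF and PBS values overlapped, and all were below TNBS PF. Its transcript model is long (13922 bases of merged exons), so these low FPKM rest on 583 to 1490 fragments per library. The difference was 0.51 against control PF (SE 0.0659, limma adjusted p = 0.000357) and 0.63 against PBS (adjusted p = 4.82e-05). On this scale the added 1 understates the change of genes of low level, which was 1.58-fold and 1.77-fold in FPKM.

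Slc7a1 and Slc7a3 encode the cationic carriers CAT1 and CAT3, which take up arginine, lysine and ornithine. They lie at chr5:148327410-148399904 and chrX:101079210-101086020, both on the minus strand. Slc7a1 had 11.1, 11.2 and 12.4 FPKM under TNBS PF, 8.55, 9.19 and 9.22 under control PF and 8.97, 9.04 and 9.44 under PBS. The TNBS PF values stood apart, and Slc7a1 rose by 0.33 against control PF (SE 0.0505, limma adjusted p = 0.00112) and 0.31 against PBS (adjusted p = 0.00129). Slc7a3 was the lowest of the 10, with 1.89, 2.28 and 2.11 FPKM under TNBS PF, 1.29, 1.62 and 1.42 under control PF and 1.35, 1.21 and 1.27 under PBS. These correspond to 82 to 221 fragments per library. TNBS PF was again above all other libraries, by 0.34 against control PF (SE 0.0736, limma adjusted p = 0.0102) and 0.44 against PBS (adjusted p = 0.00146). Without TNBS PF 2 the adjusted p of Slc7a3 against control PF was 0.0543, in a range from 0.00618 to 0.0543 over 15 alternatives.

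Slc1a5 and Slc1a4 encode ASCT2 and ASCT1, exchangers of alanine, serine and cysteine, of which ASCT2 also carries glutamine. They lie at chr7:16781340-16798274 (plus strand) and chr11:20302180-20332713 (minus strand). Slc1a5 was at 26.0, 26.0 and 28.3 FPKM under TNBS PF, 20.2, 22.1 and 20.9 under control PF and 22.4, 20.2 and 22.6 under PBS. Its TNBS PF values did not overlap with the others, and it rose by 0.33 against control PF (SE 0.0497, limma adjusted p = 0.00107) and 0.29 against PBS (adjusted p = 0.00184). Slc1a4 was at 13.2, 13.8 and 14.8 FPKM under TNBS PF, 12.6, 12.1 and 12.2 under control PF and 14.1, 12.01 and 13.5 under PBS. For Slc1a4 TNBS PF lay above control PF and overlapped with PBS. Its difference from control PF was 0.17 (95% interval 0.05 to 0.29, limma adjusted p = 0.0775), and 2 of 15 alternatives called it, limma voom (adjusted p = 0.0374) and a fit to these 2 groups alone (adjusted p = 0.0362). Against PBS the difference was 0.07 (-0.05 to 0.20, adjusted p = 0.413).

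Slc6a9 encodes GlyT1, a sodium-coupled glycine carrier, and lies at chr4:117834506-117875198 on the plus strand. The 3 groups had 4.20, 4.01 and 4.75 FPKM under TNBS PF, 2.98, 3.24 and 3.51 under control PF and 3.39, 3.65 and 3.52 under PBS. TNBS PF was above the other 6 libraries. The rise against control PF was 0.33 (SE 0.0672, limma adjusted p = 0.00801). Against PBS it was 0.23 (adjusted p = 0.0315), a call that was lost without TNBS PF 1 (0.0639), TNBS PF 3 (0.132), PBS 1 (0.0918) or PBS 3 (0.0692) and without the filter (0.076). In GENCODE M21 exons of Slc6a9 share 1429 bases, 27.8% of their length, with Ccdc24 on the opposite strand. No source used here gives the strand setting of the authors' counting, so reads of the 2 genes there cannot be told apart.

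Slc38a2 and Slc38a1 encode SNAT2 and SNAT1, sodium-coupled carriers of glutamine, alanine and other small neutral amino acids. They lie at chr15:96687392-96699730 and chr15:96571418-96642913, both on the minus strand. Slc38a2 was the most abundant of the 10 in every group, with 64.6, 63.7 and 66.7 FPKM under TNBS PF, 61.9, 62.1 and 65.3 under control PF and 64.6, 60.8 and 62.6 under PBS. The 3 groups overlapped, with a difference of 0.04 between TNBS PF and control PF (95% interval -0.03 to 0.11, limma adjusted p = 0.477). Slc38a1 was at 6.73, 6.54 and 6.63 FPKM under TNBS PF, 5.95, 6.18 and 6.30 under control PF and 6.40, 6.42 and 6.47 under PBS. The groups of Slc38a1 did not overlap, but they lay close together, at 0.10 between TNBS PF and control PF (0.00 to 0.19, limma adjusted p = 0.194) and 0.04 between TNBS PF and PBS (-0.06 to 0.13, adjusted p = 0.595). Whether either gene changed less than the 7 that were called was not tested.

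Between control PF and PBS no transporter passed. The estimates ran from -0.10 for Slc1a4 (95% interval -0.22 to 0.03, limma adjusted p = 0.452) to 0.12 for Slc7a11 (-0.03 to 0.26, adjusted p = 0.432). Slc7a3 was at 0.10 (-0.06 to 0.26) and Slc7a5 at -0.04 (-0.19 to 0.10). Slc3a2 was at 0.02 (-0.06 to 0.10) and Slc38a2 at 0.01 (-0.06 to 0.08), and both turned below 0 when the values were scaled to TPM. Only Slc38a1 had groups that did not overlap, with control PF below PBS, as in 9.32% of all tested genes (9.33% for control PF above PBS, 18.6% for either).

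**Figure D2:**
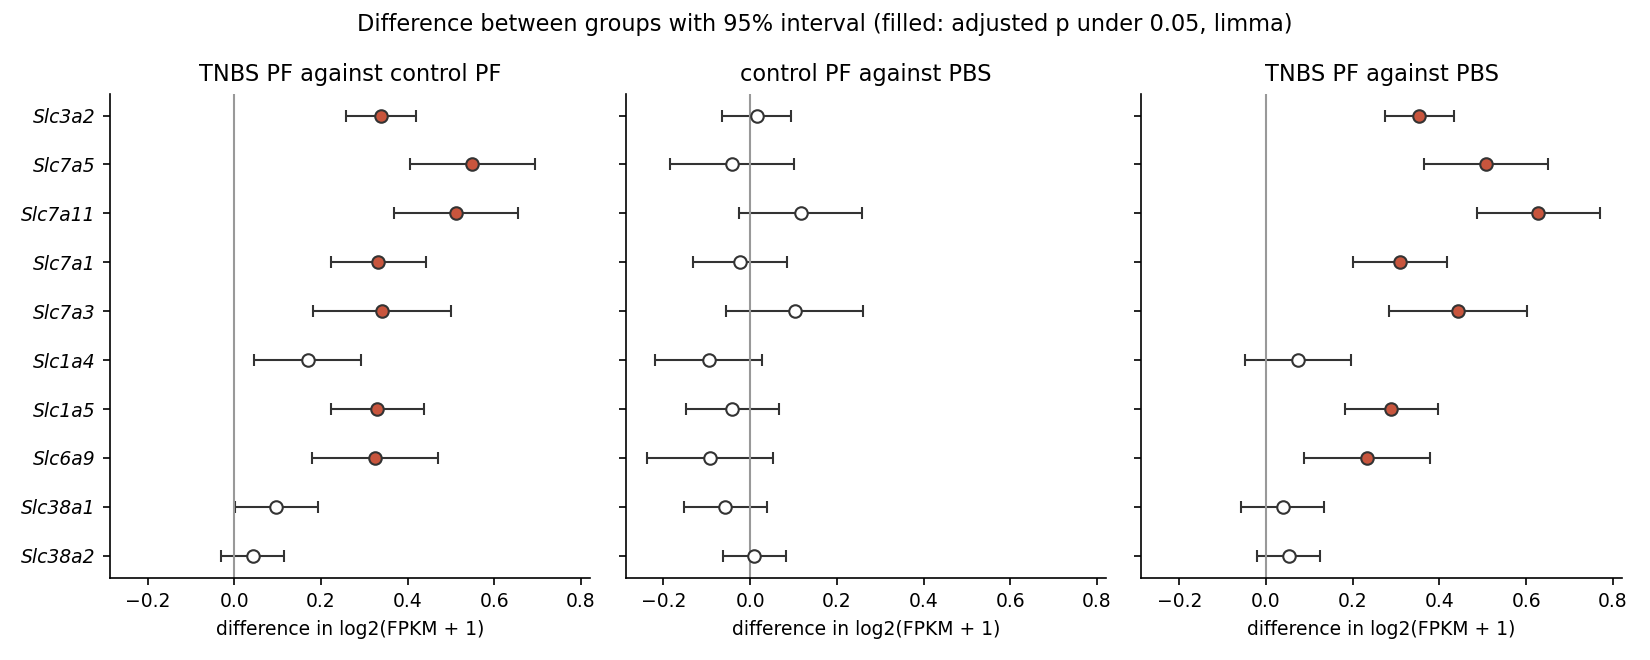
Difference of each of the 10 genes in log2(FPKM + 1) for the 3 pairs of groups, with the 95% interval of limma and filled points at an adjusted p under 0.05. In both panels with TNBS PF 7 points are filled, and in the panel of control PF against PBS 0 are.

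In PBS the order of mean levels was Slc38a2 (62.7 ± 1.88 FPKM, SD, n = 3), Slc3a2 (38.8 ± 1.42), Slc7a5 (29.3 ± 2.35), Slc1a5 (21.7 ± 1.31), Slc1a4 (13.2 ± 1.09), Slc7a1 (9.15 ± 0.252), Slc38a1 (6.43 ± 0.0378), Slc6a9 (3.52 ± 0.13), Slc7a11 (2.45 ± 0.151) and Slc7a3 (1.28 ± 0.0706). Each neighbour in this order was apart from the next in all 3 libraries. The order was the same in control PF. In TNBS PF Slc7a11 (4.34 ± 0.286) and Slc6a9 (4.32 ± 0.388) overlapped, and the other neighbours were apart. Among all tested genes the mean level of Slc7a11 was at percentile 14.3 in PBS and 29.0 in TNBS PF, and that of Slc7a5 at 83.3 and 88.8. The summed FPKM of the 10 was 219.9 to 237.9 in TNBS PF, 181 to 191 in control PF and 180.4 to 193.8 in PBS.

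Since FPKM is per length, light and heavy chain levels can be set against each other within a library. The length is that of merged exons, 13922 bases for Slc7a11, 3529 for Slc3a2 and 3708 for Slc7a5. Which transcript lengths the cells used was not measured, so the ratios are of FPKM and not of molecules. The ratio of Slc7a5 to Slc3a2 was 0.814, 0.847 and 0.87 in TNBS PF, 0.687, 0.775 and 0.715 in control PF and 0.787, 0.705 and 0.775 in PBS. The ratio of Slc7a11 to Slc3a2 was 0.0861, 0.0852 and 0.0896 in TNBS PF, 0.0647, 0.0725 and 0.0728 in control PF and 0.0616, 0.063 and 0.0649 in PBS. Both ratios were higher in every TNBS PF library than in the other 6. An exact two-sided permutation test gave p = 0.1 for each against either group, the smallest p that 3 against 3 libraries allow (0.15 adjusted over 9 ratio tests). The ratio of Slc7a11 to Slc7a5 was 0.106, 0.101 and 0.103 in TNBS PF and overlapped with control PF, at 0.0942, 0.0936 and 0.102 (exact p = 0.2), while PBS was at 0.0783, 0.0893 and 0.0839 (exact p = 0.1). For this ratio control PF also lay above PBS without overlap (exact p = 0.1), so it was not particular to TNBS PF.

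The heavy chain also serves the light chains of Slc7a6, Slc7a7, Slc7a8 and Slc7a10. Slc7a6, which encodes y+LAT2, had 20.9 to 22.8 FPKM under TNBS PF, 20.2 to 22.4 under control PF and 20.7 to 21.2 under PBS, and its difference between TNBS PF and control PF was 0.01 (limma adjusted p = 0.913). Slc7a7 was under 1 FPKM in all libraries, Slc7a8 was at most 0.0336 and Slc7a10 was listed at 0. Of the summed FPKM of these 6 light chains Slc7a5 made up 59.9, 61.5 and 61.8% in TNBS PF, 53.1, 54.8 and 51.6% in control PF and 55.5, 52.9 and 56.2% in PBS. The sum divided by Slc3a2 was 1.36 to 1.41 in TNBS PF, 1.29 to 1.41 in control PF and 1.33 to 1.42 in PBS, so that the groups overlapped.

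**Figure D3:**
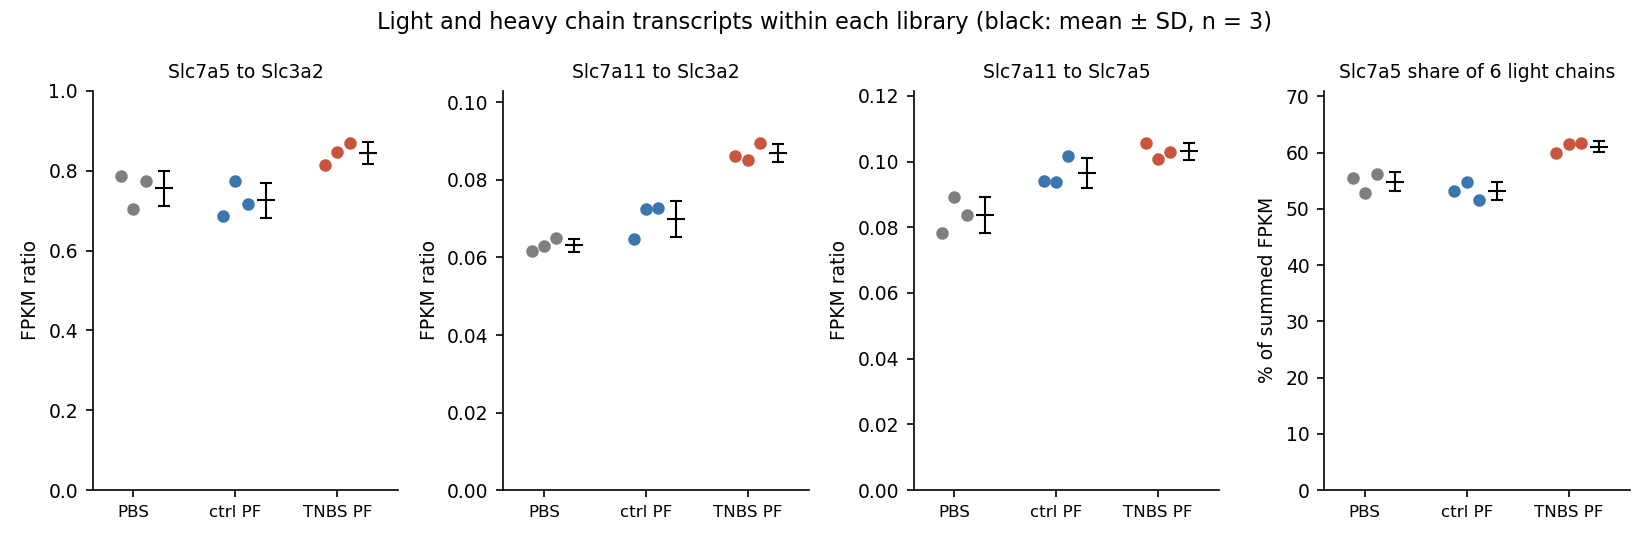
FPKM ratios of light to heavy chain transcripts and the share of Slc7a5 in the sum of 6 light chain genes, on axes from 0, with 1 point per library and mean ± SD in black. The TNBS PF points lie above the other 6 for Slc7a5 to Slc3a2, for Slc7a11 to Slc3a2 and for the share of Slc7a5 (59.9 to 61.8%).

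Of 36 other amino acid carriers of the plasma membrane 8 were tested, and the other 28 were under 1 FPKM in all 9 libraries. For this list and those below, the shares called among all tested genes were 5.15% higher and 5.45% lower in TNBS PF against control PF. They were 7.8% and 8.88% in TNBS PF against PBS, and 1.02% and 1.14% in control PF against PBS. In TNBS PF against control PF 0 of the 8 rose, also at an unadjusted p under 0.05 and by limma voom, and 1 fell (median 0.01). That gene was Slc7a2, which encodes a further cationic carrier, CAT2. It was at 16.2 ± 0.119 FPKM under TNBS PF, 17.8 ± 0.34 under control PF and 20.3 ± 0.87 under PBS (SD, n = 3). Slc7a2 fell by 0.31 against PBS (limma adjusted p = 0.000167, held under 15 of 15 alternatives). Against control PF it fell by 0.13 (adjusted p = 0.0453, held under 3 of 15 and lost without any 1 of the 6 libraries, at 0.0764 to 0.137). Control PF against PBS gave -0.18 (adjusted p = 0.0291), held under 7 of 15 and lost without control PF 1 (0.0884), 2 (0.103) or 3 (0.0584) and without PBS 1 (0.0866) or 3 (0.0738).

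Lysosomal and vesicular carriers had 9 of 16 tested, with 0 risen and 2 fallen in TNBS PF against control PF (median -0.14, against -0.01 for all tested genes). These were Slc38a10 (-0.16, limma adjusted p = 0.0226) and Slc36a4, a proton-coupled amino acid carrier gene (-0.15, adjusted p = 0.0343). They held under 10 and 9 of 15 alternatives. Slc38a10 was lost without TNBS PF 1 (0.0954), TNBS PF 3 (0.079), control PF 2 (0.0873) or control PF 3 (0.0793), and Slc36a4 without any TNBS PF library (0.0723 to 0.126) or without control PF 2 (0.102) or 3 (0.109). Against PBS 0 rose and 2 fell, Slc38a10 (-0.14, adjusted p = 0.0362) and the cystinosin gene Ctns (-0.23, adjusted p = 0.0407), each held under 7 of 15. Those 2 falls became 0 without TNBS PF 1, TNBS PF 3 or PBS 1 and 1 without PBS 2 or PBS 3. In both comparisons 0 of the 9 rose at an unadjusted p under 0.05 or by limma voom. Mitochondrial carriers had 9 of 13 tested, with 0 risen and 1 fallen by limma in both comparisons with TNBS PF, where 1 was higher at an unadjusted p under 0.05 and 0 by limma voom. Sfxn3, a sideroflexin gene, was at 25.4 ± 0.977 FPKM under TNBS PF, 29.2 ± 1.32 under control PF and 30.04 ± 0.67 under PBS. It fell by 0.19 against control PF (adjusted p = 0.00823) and 0.23 against PBS (adjusted p = 0.00183), in all 15 alternatives of each.

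Enzymes that make or use the carried amino acids had 14 risen and 0 fallen of 28 tested in TNBS PF against control PF (median 0.14), with 1 lower at an unadjusted p under 0.05 and 0 lower by limma voom. Cth, which makes cysteine from cystathionine, was at 23.1 ± 2.33 against 16.2 ± 0.475 FPKM and rose by 0.48 (limma adjusted p = 0.000552). Psph, Phgdh and Mthfd2, of serine synthesis and mitochondrial folate metabolism, rose by 0.46, 0.36 and 0.37 (adjusted p = 2.79e-05, 0.000157 and 0.000152). Against PBS 13 rose and 1 fell, with Cth at 0.71 and Gpt2, a mitochondrial alanine aminotransferase gene, at 0.46. The gene that fell was Ass1, which makes arginine from citrulline by way of argininosuccinate (7.51 ± 0.474 against 10.2 ± 0.991 FPKM, adjusted p = 0.00157). In control PF against PBS Shmt2 rose by 0.18 (adjusted p = 0.0213, held under 10 of 15 alternatives and lost without control PF 1, 0.066, control PF 2, 0.0867, and PBS 1, 0.062). Ass1 fell by 0.36 in that comparison (adjusted p = 0.012, held under 12 of 15 and lost without control PF 1, 0.0559, and control PF 3, 0.0548).

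Kinases of eIF2 alpha and genes of the ATF4 branch had 12 risen and 0 fallen of 20 in TNBS PF against control PF (median 0.19), where limma voom gave 11 and 1 and 2 were lower at an unadjusted p under 0.05. Of the kinase genes, Eif2ak2 was at 41.4 to 43.2 FPKM under TNBS PF and 44.0 to 46.5 under control PF. The ranges of Eif2ak1 (8.04 to 8.65 and 8.02 to 9.08), Eif2ak3 (5.00 to 5.78 and 5.47 to 6.62) and Eif2ak4 (6.60 to 6.98 and 6.23 to 6.71) overlapped. The 12 rises became 8 without the filter or without control PF 3. They became 9 without the mean-variance trend of limma or without control PF 2, TNBS PF 1 or TNBS PF 2. Atf4 itself was at 141.2 ± 7.79 against 107.3 ± 1.94 FPKM (0.39, limma adjusted p = 0.000105). Trib3, a pseudokinase gene induced by ATF4, rose by 0.64 (adjusted p = 5.43e-06) and Chac1, whose product breaks down glutathione, by 0.62 (adjusted p = 0.000341). Asns, asparagine synthetase, and Ddit3, which encodes CHOP, both rose by 0.41 (adjusted p = 5.01e-05 and 0.00207). In TNBS PF against PBS 11 rose and 1, the interferon-induced kinase gene Eif2ak2, fell (-0.21, adjusted p = 0.00103). Those 11 rises became 8 without TNBS PF 1 and 9 without TNBS PF 3, PBS 2, PBS 3 or the filter. There limma voom gave 13. Between control PF and PBS 0 of 20 passed, also by limma voom, with 4 at an unadjusted p under 0.05 (3 higher, 1 lower). Among all tested genes 2.15% were called there, and 1643 of 10537 had an unadjusted p under 0.05. For 20 genes both counts lie near those shares.

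Genes of amino acid sensing by mTORC1, the growth kinase complex activated at the lysosome, had 2 risen and 2 fallen of 34 in TNBS PF against control PF (median -0.05). For 34 genes these counts lie near the shares of all tested genes, 5.15% higher and 5.45% lower. Rheb, the GTPase that activates mTORC1, and Lars, leucyl-tRNA synthetase, both rose by 0.24 (limma adjusted p = 0.00255 and 0.000804). Sesn1, which encodes a sestrin, fell by 0.23 (adjusted p = 0.00346). Castor2, of the arginine sensor family, fell by 0.27 (adjusted p = 0.0107, 0.0528 without TNBS PF 2 and 0.0523 without control PF 3). Against PBS 3 rose and 7 fell, with Sesn3 at -0.33 and Fnip1 at -0.28 (adjusted p = 0.0037 and 0.00312). Among all tested genes 7.8% rose and 8.88% fell in that comparison. The 7 falls there became 3 without any 1 of the TNBS PF libraries, PBS 1 or PBS 3, 4 without PBS 2, 3 without the filter and 4 by quantile normalization or median-ratio scaling. Sesn3 and Fnip1 held under 15 of 15 alternatives. Of the regulators known for these carriers, Myc rose from 32.3 ± 0.778 to 39.95 ± 0.759 FPKM against control PF (0.30, adjusted p = 0.000197). Nfe2l2, which encodes NRF2, was at 54.2 ± 0.244 FPKM in TNBS PF and 59.2 ± 2.55 in control PF (-0.12, adjusted p = 0.0814). Of 8 tested regulators 1 rose, Myc, and 1 fell, the ubiquitin ligase gene Nedd4 (-0.12, adjusted p = 0.0149, lost without TNBS PF 1, 0.0684, TNBS PF 3, 0.0549, or control PF 2, 0.0701). With TPM scaling, limma voom or a fit to these 2 groups alone 2 of the 8 fell.

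**Figure D4:**
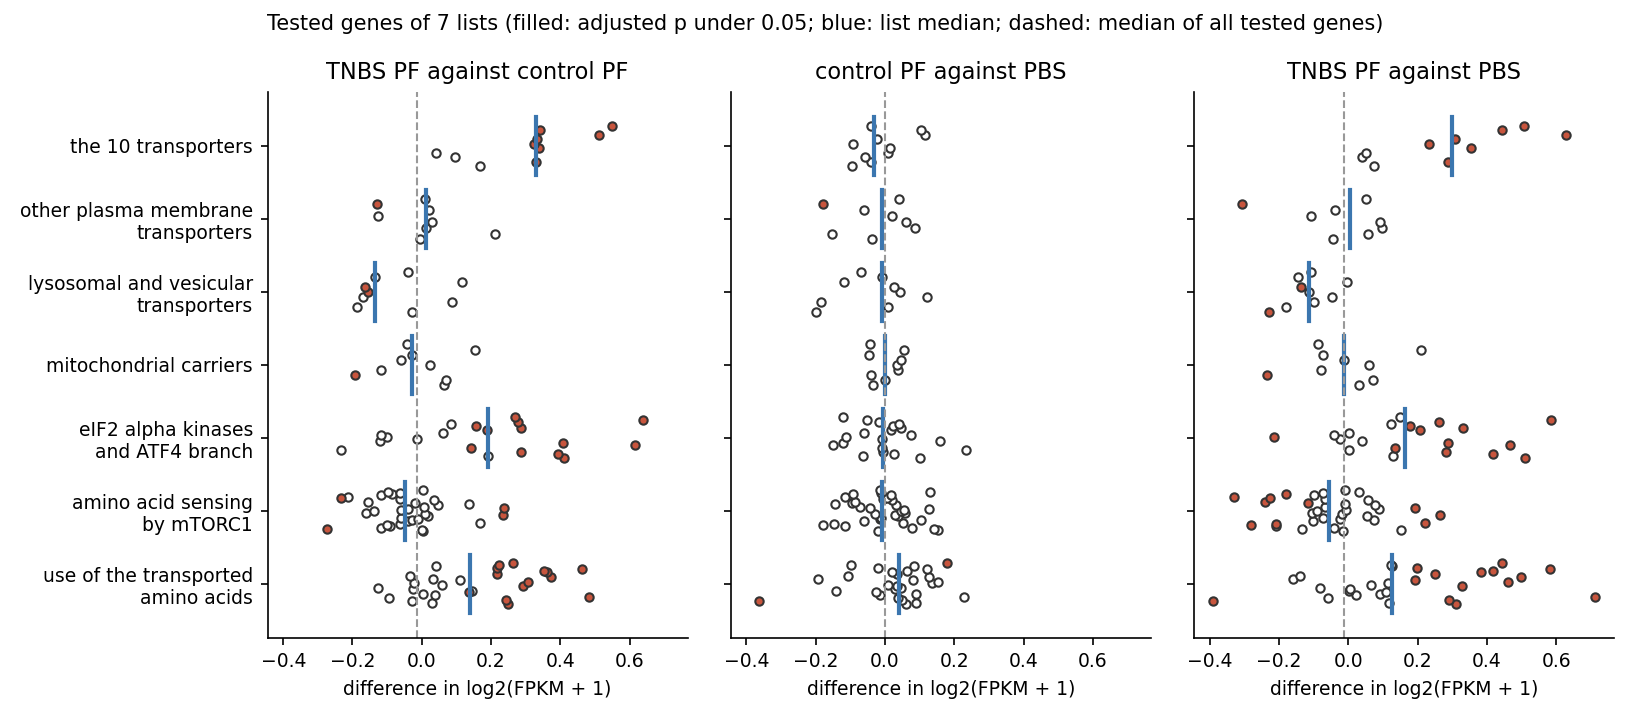
Difference in log2(FPKM + 1) of each tested gene in the 10 transporters and 6 further lists, for the 3 pairs of groups, with filled points at an adjusted p under 0.05, list medians in blue and the median of all tested genes dashed. In TNBS PF against control PF filled points lie to the right for the 10 transporters, for the list of eIF2 alpha kinases and ATF4 branch genes (12 of 20) and for enzymes using the amino acids (14 of 28).

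The genes whose pattern over the 9 libraries was most like that of Slc7a5, by Pearson's r of log2(FPKM + 1), were Sars (0.989), Iars (0.977), Mars1 (0.976), Hspa9 (0.973) and Pycr1 (0.972). Sars, Iars and Mars1 encode cytosolic aminoacyl-tRNA synthetases, Hspa9 a mitochondrial chaperone and Pycr1 an enzyme of proline synthesis. For Slc7a11 they were Mars1 (0.992), Bcat1 (0.987), Actg1 (0.987), Lrrc59 (0.983) and Txnrd1 (0.982). Bcat1 starts the breakdown of branched-chain amino acids, and Txnrd1 encodes thioredoxin reductase. Among the 10 transporters r was highest between Slc7a5 and Slc1a5 (0.993). These values describe 9 libraries in 3 groups, so they largely follow the distance of TNBS PF from the other groups.

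The line was checked against marker lists. Of 13 stromal markers all were tested, with Col1a1, Col1a2 and Thy1 between 52.3 and 345.6 FPKM. Against control PF 2 of the 13 rose and 5 fell in TNBS PF, and against PBS 2 rose and 6 fell. Col3a1 was at 26.9 ± 0.396 FPKM in TNBS PF and 38.3 ± 1.02 in control PF, Pdgfra at 9.47 ± 0.233 and 12.6 ± 0.218, and Cd44, which rose, at 89.4 ± 1.13 and 77.0 ± 1.81. The 2 rises against control PF became 1 without TNBS PF 1, TNBS PF 3 or any 1 control PF library, and the 5 falls stayed at 5 without any 1 library. The summed level of the 13 was 1607 to 1630 FPKM in TNBS PF, 1695 to 1712 in control PF and 1721 to 1782 in PBS. Of 20 haematopoietic and endothelial markers 17 were under 1 FPKM in all libraries, Cd3g, Hbb-bs and S100a9 were listed at 0 in all and Ptprc was at most 0.00306 FPKM. Cd34, Cd14 and Cd68 were the exceptions, and the summed level was 66.9 to 69.1 FPKM under TNBS PF, 60.1 to 66.3 under control PF and 62.2 to 66.1 under PBS. Of 14 mesothelial markers, for the lining cells of the peritoneum, 10 were under 1 FPKM in all libraries, and of 4 tested Msln, Krt19 and Krt18 rose in TNBS PF against control PF (limma adjusted p = 0.0043, 0.0154 and 0.0497). The other tested marker, Slpi, went the other way, at 4.83, 4.44 and 5.55 FPKM in TNBS PF and 6.45, 5.79 and 5.87 in control PF. It was lower at an unadjusted limma p under 0.05 but was not called. In PBS Slpi was at 4.17, 5.28 and 3.71 FPKM. Msln held under 15 of 15 alternatives, Krt19 under 10 and Krt18 under 4. The count of 3 became 1 without TNBS PF 1, TNBS PF 2 or control PF 2 and 2 without any other 1 of those libraries. Muc16 and Nkain4 were listed at 0 in all. Their sum was 52.9 to 58.3 FPKM under TNBS PF, 46.5 to 48.0 under control PF and 48.0 to 48.8 under PBS, mostly Msln, while Upk3b and Lrrn4 were at most 0.0395 FPKM. The depth was 22.9 to 25.6 M assigned fragments in TNBS PF, 18.6 to 21.5 in control PF and 17.9 to 20.3 in PBS. The part of marker levels or depth in the transporter results was not tested. In bulk RNA a change in the share of cells and a change per cell cannot be told apart.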

How the data were processed

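Per the file headers, the authors deposited 1 table with FPKM (fragments divided by gene length and by library depth) for each of 9 libraries. Per the labels' protocols total RNA was isolated with Trizol, with 3 µg as input. Per the submitters' processing notes reads were trimmed with cutadapt 1.15 and the build was mm10. The aligner, the counting program and its strand setting: not given in the sources used here. Exon lengths of GENCODE M21 turned the deposited FPKM into whole fragments, within 0.01, for 97.2 to 97.3% of values under 1000 fragments, which gave the depth of 17.9 to 25.6 M assigned fragments per library.

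FPKM were tested as log2(FPKM + 1), with genes of at least 1 FPKM in at least 3 libraries, in limma 3.58.1 (R 4.3.3) with a mean-variance trend. All 9 libraries entered 1 fit, adjusted by Benjamini-Hochberg over 10537 genes, with a threshold of 0.05. The fit was tested on simulated data. Ratios were compared by exact permutation in scipy 1.17.1. Alternatives were other pseudocounts, filters, scalings, variance models and fits, a replicate block, limma voom on recovered fragments, and leaving out each library. The 10 genes and the lists were chosen with earlier results of these data known. Genes outside the 10 were named by a rule: up to 4 per list past the threshold by size of change, or the gene of smallest p where none passed, the regulators Atf4, Nfe2l2 and Myc, and the 5 most similar patterns for Slc7a5 and Slc7a11. Genes that are light chains, markers or overlaps, and some of a count of 1 or 2, were named outside it after their values were seen. Where 1 symbol stood for 2 IDs (Ddit3), the ID with the higher mean was used. The authors' own group means, fold changes and p-values were not used.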

Additional observations from a re-analysis of the deposited data

How the results depend on the processing

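Over 15 alternatives for each comparison, the 10 transporters gave 6 to 8 calls in TNBS PF against control PF, 6 to 7 in TNBS PF against PBS and 0 in control PF against PBS. Of 150 values in each, 147, 145 and 141 kept direction and side of the threshold, and the 5 calls lost in TNBS PF against PBS were all of Slc6a9. In control PF against PBS, with no call, the sign turned with TPM scaling for Slc3a2 (-0.000261) and Slc38a2 (-0.00587). It also turned on leaving out 1 library, where Slc3a2 ranged from -0.000866 to 0.0445, Slc38a2 from -0.0148 to 0.031, Slc7a5 from -0.105 to 0.00595 and Slc7a1 from -0.0405 to 0.00823. The cause was not tested.

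Over all genes, TNBS PF against control PF gave 1117 calls, TNBS PF against PBS 1758 and control PF against PBS 227. Leaving out 1 library, which also leaves fewer samples, gave 661 to 860, 1148 to 1620 and 115 to 311. In control PF against PBS 103 were called without the filter, where more genes are tested, 117 without the mean-variance trend and 374 by limma voom. The share of higher calls in TNBS PF against PBS, 46.8%, was 35.1% with TPM scaling, and that in TNBS PF against control PF, 48.6%, was 58.0% with median-ratio scaling.

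The labels do not say whether the replicate numbers mark paired libraries. The check made here cannot decide it, since deviations within a group of 3 libraries sum to 0 and so depend on each other. Correlations of deviations from the group means ran from -0.0978 to 0.0746 between libraries of 1 number, and 5 of 9 libraries correlated best with their own number. With the replicate block 906, 1537 and 169 genes were called, and the transporters gave 7, 7 and 0.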

Other observations

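The highest and lowest library of each group were counted over the 10 transporters only. The share among all tested genes was not computed, so a trait of the transporters and one of the whole library cannot be told apart. TNBS PF 3 had the highest TNBS PF value for 8 of the 10 genes and the lowest for 0. In control PF library 1 had the lowest value for 9 of 10, and in PBS library 2 had the lowest for 6 and library 3 the highest for 6. TNBS PF 3 was the shallowest of its group, at 22.9 M assigned fragments. Its part in these values was not tested. Without TNBS PF 3 Slc7a5 and Slc7a11 rose by 0.50 and 0.47 against control PF, and 7 of the 10 genes were called.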
